A study of Mus musculus with 8 samples.

Results

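The regions described here were CEBPA peaks away from promoters that were called both without and with wild-type PU.1 and that no PU.1 peak touched. They were selected on measured peak calls. A CEBPA peak of the PuER list was taken when it overlapped a CEBPA peak of the empty-vector list by at least 1 bp, overlapped no PU.1 peak of either list, and had its centre more than 1000 bp from the start of every transcript of a protein-coding gene. Of the 20583 CEBPA peaks of the PuER list, 87.9% overlapped an empty-vector CEBPA peak, and 10927 met the whole rule. They are called constitutive distal peaks below. The shared calls, the absence of PU.1 and the distance from starts are the rule itself and were not tested.

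CEBPA is a basic leucine zipper transcription factor that binds DNA as a dimer and drives the formation of granulocytes and monocytes from myeloid progenitors. It is often found at enhancers, where in myeloid cells a common neighbour is PU.1, an ETS-family factor that is itself needed for myeloid development. Close relatives of CEBPA (CEBPB, CEBPD, CEBPE and CEBPG) recognise the same palindromic sequence and can pair with it or with ATF-type partners.

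The cells came from X18.1.1, a radiation-induced murine acute myeloid leukaemia (AML) line in which 1 Pu.1 allele is deleted and the remaining allele carries missense and deletion mutations. It was transduced with an MSCV-puro retrovirus that was empty (EV, PU.1-) or encoded PuER (PU.1+), in which PU.1 is joined to an oestrogen receptor domain and enters action once 4-hydroxytamoxifen (OHT) is added. Each line was a clone obtained by limiting dilution, and both received 100 nM OHT for 2 h, so the empty-vector cells shared the Pu.1 mutations, the vector backbone and the drug. Chromatin was immunoprecipitated and sequenced (ChIP-Seq) with antibodies to CEBPA and to PU.1, with 1 library for each antibody and line. The deposited files of these 4 libraries hold peak coordinates alone, every peak 400 bp wide. Read depth and peak height are therefore unknown, there are no replicates, and no p-values were computed. The 95% intervals (exact Clopper-Pearson for shares, Newcombe for differences between shares) cover counting error only. They do not cover differences between cultures or libraries.

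The DNA under the peaks is shown first for genes of the CEBP family, granule proteins, proliferation, cytokine signalling and amino-acid stress, because the sites at these peaks carry the main measurement. Each line gives the central 80 bp of a constitutive distal peak on the + strand of GRCm38 (mm10), with every match to the CEBP consensus TTGCNNAA, on either strand, in capitals. Where a gene had several such peaks, the peak with its site nearest the centre is shown.
Cebpa chr7:35133108-35133187: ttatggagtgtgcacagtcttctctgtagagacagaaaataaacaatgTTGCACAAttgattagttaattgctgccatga
Cebpb chr2:167710028-167710107: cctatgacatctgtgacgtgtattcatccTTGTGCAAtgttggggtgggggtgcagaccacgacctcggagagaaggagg
Myc chr15:61983566-61983645: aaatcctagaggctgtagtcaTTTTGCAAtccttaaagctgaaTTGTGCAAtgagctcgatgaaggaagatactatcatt
Cdk6 chr5:3357692-3357771: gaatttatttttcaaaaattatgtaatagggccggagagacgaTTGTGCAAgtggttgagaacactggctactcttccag
Elane chr10:79884611-79884690: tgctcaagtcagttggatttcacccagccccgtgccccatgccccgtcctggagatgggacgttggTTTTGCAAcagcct
Hp chr8:109585822-109585901: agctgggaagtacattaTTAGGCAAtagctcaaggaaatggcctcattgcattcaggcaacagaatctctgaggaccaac
Stat3 chr11:100916590-100916669: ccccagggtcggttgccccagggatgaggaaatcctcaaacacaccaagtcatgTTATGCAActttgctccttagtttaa
Socs3 chr11:117959321-117959400: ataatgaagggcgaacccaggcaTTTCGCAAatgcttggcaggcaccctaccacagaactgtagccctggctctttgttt
Asns chr6:7733247-7733326: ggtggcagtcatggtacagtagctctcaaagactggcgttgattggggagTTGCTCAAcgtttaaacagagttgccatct
The Cdk6 and Stat3 windows lay in introns of their genes, the Cebpb window in a non-coding gene 21.2 kb from the start of Cebpb, and the others between genes. In the Cebpa, Cebpb, Myc and Cdk6 windows the site nearest the centre was TTGCACAA, read on either strand, which was also the most frequent form over all the peaks. The Myc window held 2 sites, and each of the other windows held 1. The distance between the site and the PuER peak centre ran from 7 bp in the Cebpb, Myc and Cdk6 windows to 30 bp in the Elane window. Between the lists the centres of these 9 peaks differed by 1 bp (Hp) to 22 bp (Cdk6).

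Constitutive distal peaks at 3 further genes held no exact site in the window shown, and here the capitals mark every 8 bases that differ from the consensus at 1 of its 6 fixed positions. They stand for the larger share of the class, show the peak nearest the gene start and were added after the values were seen.
Cebpe chr14:54706689-54706768: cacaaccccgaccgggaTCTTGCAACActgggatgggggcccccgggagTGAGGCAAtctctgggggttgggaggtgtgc
Gfi1 chr5:107722280-107722359: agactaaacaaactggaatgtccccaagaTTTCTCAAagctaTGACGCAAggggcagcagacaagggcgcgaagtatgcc
Trib3 chr2:152350049-152350128: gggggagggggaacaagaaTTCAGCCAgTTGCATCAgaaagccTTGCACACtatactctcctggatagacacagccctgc
The Gfi1 window, in an intron, carried TGACGCAA. The Trib3 window, at -6.06 kb from the gene start (negative distances are upstream), held a CEBP-ATF composite, which is described below. The peak at Lcn2, which encodes lipocalin 2, had neither an exact site nor an 8-base stretch within 1 mismatch in its central 80 bp.

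A CEBP site lay in the central 80 bp of 4702 of the 10927 constitutive distal peaks, 43.0% (95% interval 42.1 to 44.0). In windows of the same size centred 2000 bp to either side the share was 3.25% (710 of 21854). The peaks therefore held a site 13.2 times as often as the DNA beside them. Of all RefSeq promoter windows of GRCm38, cut to 80 bases, 3.12% held a site. Most of the peaks with a site had 1 (4334 peaks), while 358 had 2, 9 had 3 and 1 had 4.

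The sites were packed at the peak centres. In the middle 40 bp there were 16.8 CEBP sites per 100 peaks for each 20 bp, against 0.787 in the outermost 20 bp at either end, a ratio of 21.3. Across the whole 400 bp, 6438 peaks held a site, and the median distance from the nearest site to the PuER centre was 17 bp. The same site lay a median of 18 bp from the centre of the empty-vector peak, and it was within 40 bp of the centre in 75.5% of PuER peaks and 73.9% of empty-vector peaks. The medians without and with functional PU.1 thus differed by 1 bp. Because the site was picked as the nearest to the PuER centre, the comparison favours the PuER peaks.

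**Figure D1:**
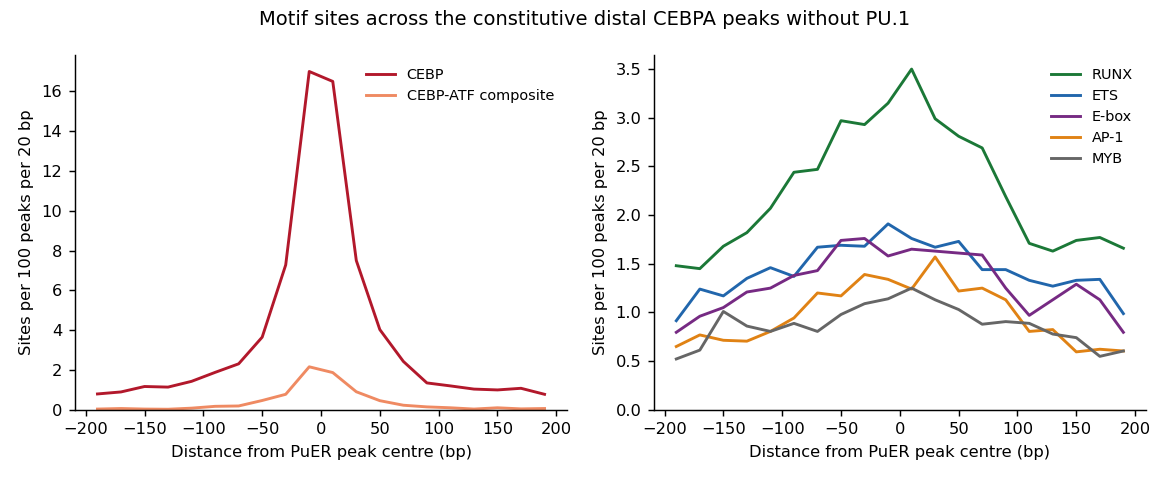
Motif sites per 100 constitutive distal peaks in each 20-bp bin (vertical axis) by distance in bp from the centre of the PuER peak (horizontal axis), with CEBP and CEBP-ATF composite sites on the left and 5 other motifs on the right on a smaller vertical scale. CEBP sites rise from 0.787 per 100 peaks at the ends to 16.8 in the middle bins, while RUNX sites, the most frequent of the others, rise from 1.57 to 3.32.

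The 16 forms of the site that the 2 free bases allow were used very unequally. TTGCACAA made up 1344 of the 5081 sites (26.5%) and was present in 12.1% of peaks and 0.243% of flanking windows, a 49.8-fold difference. TTGCTCAA (583 sites), TTGCATAA (485 sites) and TTGCAAAA (425 sites) followed, at 20.3, 17.7 and 12.7 times their flanking share. At the other end TTGCAGAA and TTGCTGAA, with 82 and 65 sites, were only 1.69 and 1.57 times as frequent as in the flanks. TTGCCGAA occurred at 2 sites in all the peaks. The consensus thus covers sequences that were strongly and hardly enriched in the same peaks.

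Forms holding a CG dinucleotide, the place at which mammalian DNA is methylated, formed a group of their own. They made up 20.2% of the sites in constitutive distal peaks (1028 of 5081, interval 19.1 to 21.4) and 3.85% of the sites in the flanks (28 of 728, interval 2.57 to 5.51). TTGCGTAA was present in 382 peaks and 1 of 21854 flanking windows, TTGCGCAA in 346 peaks and 1 window, and TTGCGAAA in 285 peaks and 9 windows. At constitutive distal peaks that a PU.1 peak did overlap, CG-holding forms made up 10.1% of sites (147 of 1459, interval 8.58 to 11.7), so the intervals of these classes did not meet. The share was 28.6% (interval 25.6 to 31.7) at constitutive promoter peaks without PU.1, 18.9% (17.2 to 20.6) at distal peaks of the empty-vector list alone and 16.4% (13.2 to 20.1) at those of the PuER list alone, and both distal intervals meet that of the constitutive distal peaks. CG is also more frequent in general under the promoter peaks (4.32 per 80-bp window) than under the constitutive distal peaks (1.27) or those with PU.1 (1.12), and its part in these shares was not tested. No methylation was measured.

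The peaks without an exact site mostly held a sequence close to it, with 5085 of the 6225 holding 8 bases that missed the consensus at 1 fixed base. Allowing 1 mismatch in the 6 fixed bases, 89.6% of constitutive distal peaks (interval 89.0 to 90.1) had a site in the central 80 bp, against 45.3% of flanking windows. In 10.3% of peaks the best match had 2 mismatches, and in 13 peaks it had 3. Among the 6225 peaks with no exact site, the 8-base sequences that stood out most against the flanks were TGATGCAA (534 peaks, 8.58%, against 0.129% of flanking windows), TGTTGCAA (488 peaks, 7.84% against 0.153%) and TTGTGAAA (466 peaks, 7.49% against 0.442%). Each differs from the consensus at 1 fixed base, and all RefSeq promoter windows held them at 0.259%, 0.140% and 0.320%. Among the 4702 peaks with a site, the leading sequences were TTGCACAA in 28.1%, its shifted neighbour ATTGCACA in 13% and TTGAGCAA, the opposite strand of TTGCTCAA, in 12.3%. These peaks were picked for holding TTGCNNAA and their flanks were not. That forms of TTGCNNAA lead here was fixed by that choice. TGACGCAA, the sequence of the Gfi1 peak, was looked at after its value was seen: it was present in 199 peaks without an exact site (3.20%) and in none of their 12450 flanking windows, at least 133-fold more often with a floor of 3 windows.

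TGATGCAA is the composite at which a CEBP protein pairs with an ATF-type factor such as ATF4, a regulator of amino-acid and stress genes. Over all constitutive distal peaks it was found in 5.42% (592 peaks, interval 5.00 to 5.86) and in 0.188% of flanking windows. It was concentrated in peaks with no exact CEBP site, 8.58% against 1.23% of the peaks with a site, a difference of -7.34 percentage points (interval -8.12 to -6.58). It too was centred, with 2.01 sites per 100 peaks for each 20 bp in the middle and 0.0503 at the ends. The composite reads 1 mismatch away from TTGCNNAA, so the motif families overlap by letters. A full CRE (TGACGTCA) was rare, at 0.119% of peaks and 0.0549% of flanking windows.

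Motifs of other blood-cell factors were more frequent under the constitutive distal peaks than beside them, but by smaller amounts. TGTGGT, the core bound by RUNX factors, was in 11.2% of peaks and 6.55% of flanking windows. The AP-1 site TGANTCA was in 5.01% against 2.30%, the MYB site AACNGCC in 4.14% against 2.26%, the E-box CAGCTG in 5.98% against 3.6%, and TTGGCA, an arm of the NFI palindrome, in 5.84% against 3.99%. RUNX, AP-1 and E-box sites and the ETS sequence GGAAGT were all more frequent in peaks without a CEBP site. GGAAGT was in 7.05% of peaks without and 5.83% of peaks with a site (-1.22 points, -2.14 to -0.292). RUNX was in 12.7% of peaks without and 9.25% of peaks with a site (difference -3.47 points, interval -4.64 to -2.29), the E-box in 6.75% and 4.96% (-1.79 points, -2.67 to -0.903) and AP-1 in 5.54% and 4.30% (-1.25 points, -2.05 to -0.425). The NFI arm was in 6.85% of peaks with a site and 5.08% of peaks without (1.77 points, 0.877 to 2.69). However, the CEBP form TTGCCAAA, present in 120 peaks, contains the NFI arm on the opposite strand. Those peaks count for both by their letters alone, so no direction can be read from the NFI difference. MYB differed by -0.0933 points (-0.839 to 0.672). The bases of the window that the CEBP site itself takes up were not subtracted.

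Some motifs stood at or below the level of the flanks. AGATAA, bound by GATA factors of erythroid and mast cells, was in 2.86% of peaks and 4.74% of flanking windows, a ratio of 0.605. The NF-kB sequence GGGANNNCC was at 2.20% against 2.81%, the STAT site TTCNNNGAA at 2.24% in both, the interferon-type ISRE GAAANNGAA at 2.44% against 2.72%, and the octamer ATGCAAAT at 0.403% against 0.462%. The CTCF core sequences AGGGGGC and AGGTGGC were at 0.924% against 0.874% and 1.19% against 1.30%. The nuclear receptor arm AGGTCA was at 4.68% against 5.03%. A missing match says only that these letters are not in the window.

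The constitutive distal peaks held CEBP sites more often than 3 of 4 other classes of CEBPA peak. The share with a site was 33.0% at the 2575 constitutive promoter peaks without PU.1, 34.3% at the 3971 constitutive distal peaks with PU.1 and 32.0% at the 6181 distal peaks without PU.1 that were called in the empty-vector list alone. The constitutive distal peaks exceeded these by 9.98 points (interval 7.92 to 12), 8.76 points (7 to 10.5) and 11.1 points (9.58 to 12.6). At the 1121 distal peaks without PU.1 called in PuER alone, 40.4% had a site, and the difference of 2.62 points (-0.424 to 5.60) did not clear counting error in the central 80 bp but did in the central 200 bp (3.31 points, 0.248 to 6.38). The CEBP-ATF composite was also more frequent than at the co-bound distal peaks (by 1.79 points, 1.04 to 2.49) and at the empty-vector-only peaks (by 1.24 points, 0.576 to 1.89), and against the promoter peaks by 1.11 points (0.159 to 1.95). Its difference from the PuER-only peaks, 0.511 points (-0.972 to 1.71), did not clear counting error. In all, 19 motifs were compared with 4 classes, 76 differences, and the intervals were not adjusted for that number.

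The other motifs separated the classes in different ways. The ETS sequence GGAAGT was in 6.53% of constitutive distal peaks against 19.7% of the co-bound distal peaks, and the longer PU.1-type GAGGAAGT, which contains it, in 0.631% against 3.55%. The rule removes PU.1 peaks, so this gap is a description of the selection. Against their own flanks the constitutive distal peaks held more GGAAGT (4.84% in the flanks, difference 1.68 points, 1.15 to 2.24), while the difference in GAGGAAGT (0.490% in the flanks) of 0.142 points (-0.0249 to 0.329) did not clear counting error. RUNX sites were less frequent than at the co-bound peaks (11.2% against 15.5%, difference -4.23 points, -5.53 to -2.99) and at the empty-vector-only peaks (13.3%, -2.07 points, -3.11 to -1.05). AP-1 sites were less frequent than at the PuER-only peaks (5.01% against 8.30%, -3.29 points, -5.09 to -1.75) and more frequent than at the empty-vector-only peaks (1.33 points, 0.699 to 1.95) and the promoter peaks (2.33 points, 1.53 to 3.03). RUNX sites were likewise more frequent than at the promoter peaks (5.33 points, 4.19 to 6.37). The GC box CCGCCC, bound by SP and KLF factors at promoters, was in 1.98% of the constitutive distal peaks and 15.5% of the constitutive promoter peaks, where all RefSeq promoter windows held it at 15.7%. The other motif shares over those promoter windows were 6.33% for GGAAGT, 4.54% for TGTGGT, 2.37% for TGANTCA, 4.37% for CAGCTG, 3.05% for AACNGCC and 3.17% for AGATAA. For the rarer or flatter motifs they were 0.694% for GAGGAAGT, 0.484% for TGACGTCA, 3.93% for TTGGCA, 2.18% for TTCNNNGAA, 2.09% for GAAANNGAA, 5.33% for GGGANNNCC, 4.55% for AGGTCA, 0.566% for ATGCAAAT, 3.42% for AGGGGGC and 1.65% for AGGTGGC.

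**Figure D2:**
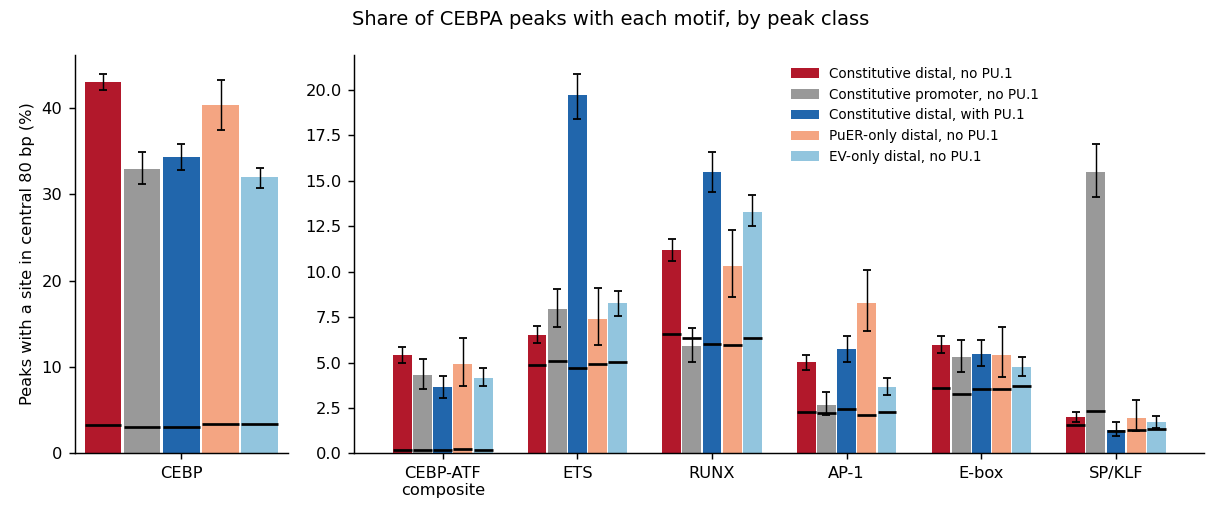
Share of CEBPA peaks (percent, vertical axis, on separate scales left and right) with a motif site in the central 80 bp in 5 peak classes, with exact 95% intervals as error bars and the share in windows 2000 bp away as black lines. The constitutive distal peaks without PU.1 (red) have the highest CEBP share, 43.0%, and an ETS share of 6.53% beside 19.7% at the co-bound distal peaks.

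The base composition of the peaks differed little from other distal peaks. The central 80 bp were 46.5% G and C, compared with 44.4% in the flanks, 46.8% at co-bound distal peaks and 56.1% at the promoter peaks. Repeats, marked in lower case in the reference, made up 7.62% of the central bases against 26.2% of the flanks. At distal peaks of the empty-vector list alone the repeat share was 10.6%.

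The same peak lay at nearly the same place in both lines. The distance between the PuER and empty-vector centres had a median of 12 bp, with quartiles of 5 and 27 bp, and 91.4% of the pairs lay within 50 bp. In 295 pairs the coordinates were identical, and in 172 the centres were over 100 bp apart. The PuER centre lay at the higher coordinate in 5648 pairs and at the lower in 4984. The medians were also 12 bp at the constitutive promoter peaks and 11 bp at the constitutive distal peaks with PU.1.

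Peaks with a CEBP site were placed more alike than those without. The median offset was 11 bp (quartiles 4 and 22) in the peaks with a site and 14 bp (5 and 30) in those without. The share with a site fell with the offset, from 47.5% where the centres were 0 to 5 bp apart (1476 of 3106) through 38.4% at 28 to 50 bp to 20.3% beyond 100 bp (35 of 172, interval 14.6 to 27.1). The shares in the empty-vector windows of the same groups were 47.2%, 37.4% and 22.1%. A site lay in the windows of both lines for 4176 peaks (38.2%), in the PuER window alone for 526 and in the empty-vector window alone for 501.

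**Figure D3:**
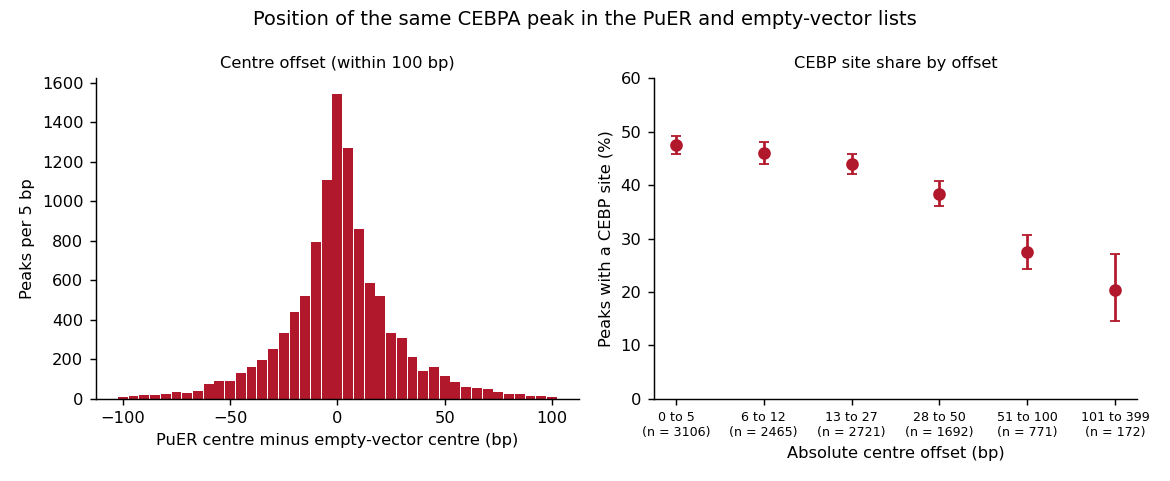
Left, number of constitutive distal peaks (vertical axis, per 5 bp) by the PuER centre minus the empty-vector centre in bp, drawn for offsets within 100 bp, with positive values towards higher coordinates. Right, percent of peaks with a CEBP site by absolute offset in bp, with exact 95% intervals, falling from 47.5% to 20.3%.

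By position, the peaks were mostly in introns and between genes. In the GENCODE annotation 5335 peak centres (48.8%) were in introns of protein-coding genes, 225 (2.06%) in coding exons and 357 (3.27%) in other exon sequence of those genes. A further 4249 (38.9%) lay outside every annotated gene and 761 (6.96%) outside protein-coding genes but within a non-coding gene, so that 45.8% (interval 44.9 to 46.8) were outside protein-coding genes. At co-bound distal peaks this share was 49.1% (47.5 to 50.6), and at empty-vector-only distal peaks 47.4% (46.1 to 48.6). Coding exons held 1.03% of the co-bound distal peaks (0.742 to 1.4), below the 2.06% (1.80 to 2.34) at the constitutive distal peaks.

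The distance from the centre to the nearest protein-coding start had a median of 15.7 kb, with quartiles of 5.55 and 46.0 kb and a largest value of 1883 kb. CEBP sites were somewhat more frequent in the most distant peaks. They were in 42.5% (interval 39.7 to 45.3) of the 1242 peaks 1 to 2.5 kb from a start. The shares were 42.2% (40.4 to 44.0) of the 2914 at 2.5 to 10 kb and 42.3% (40.8 to 43.8) of the 4194 at 10 to 50 kb. At 50 to 100 kb it was 43.5% (40.6 to 46.4) of 1150, and beyond 100 kb 47.0% (44.4 to 49.7) of 1427. The interval beyond 100 kb meets those at 1 to 2.5 kb and at 50 to 100 kb. In introns the share was 43.2%, and outside all genes it was 43.2%. Per Mb of chromosome the autosomes held 3.54 (chromosome 3) to 6.15 (chromosome 19) constitutive distal peaks, the X chromosome 1.38 and the Y chromosome 0.

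The distance to PU.1 peaks is partly fixed by the rule and is given as a description. The nearest edge of a PU.1 peak of either list lay at a median of 15 kb (quartiles 4.36 and 44.3 kb), with one within 1 kb of 981 peaks (8.98%) and within 10 kb of 40.3%. The medians were 17.1 kb at the promoter peaks without PU.1, 18 kb at the PuER-only distal peaks and 19.1 kb at the empty-vector-only distal peaks. With the PU.1 peaks of the empty-vector line the median was 62.3 kb and 329 peaks had one within 1 kb, while with those of the PuER line it was 18.6 kb and 846 did. The PuER list holds more PU.1 peaks (15683 against 5288), and the effect of their number on these distances was not tested. At the edges of the rule, 232 constitutive distal peaks had a PU.1 peak within 200 bp and 41.8% of these had a CEBP site, while the 350 peaks left out for an overlap of 1 to 200 bp had 39.4%. The 201 peaks up to 200 bp beyond the 1000-bp limit from a start had 44.3%, and the 262 left out up to 200 bp inside it had 42.7%. The 67 peaks that overlapped the empty-vector peak by 200 bp or less had 25.4%, and the 55 PuER-only distal peaks left out with an empty-vector peak within 200 bp had 32.7%.

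The peaks stood mainly alone. With neighbours linked when their centres were at most 5 kb apart, 8940 peaks had no neighbour of the same class and 1987 fell into 930 runs. There were 821 runs of 2, 96 of 3, 9 of 4, 3 of 5 and 1 of 6. The run of 6 spanned 10.1 kb at Oxr1 (chr15:41774409-41784557), which encodes an oxidation-resistance protein, and 1 of its peaks had a CEBP site. Frmd8, a partner of the iRhom proteins, had 5 peaks in 6.74 kb (chr19:5842924-5849661), of which 4 had a site. At Bcl6, which encodes a zinc-finger repressor of germinal-centre B cells and other blood cells, 5 peaks lay in its introns within 9.38 kb (chr16:23976282-23985666), and none had an exact site. The remaining run of 5 (chr8:120692428-120702358) lay upstream of Irf8 but inside the long model Gm20388, to which the gene-body rule gave it. The shortest run of 4 lay at Prkrip1 and Sh2b2. Dense stretches therefore ranged from nearly all to no peaks with the consensus.

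Peaks were given to genes by their gene body, and otherwise to the nearest protein-coding gene on each side within 50 kb, so a peak can count for more than 1 gene. Of 21951 protein-coding genes, 6060 (27.6%) had at least 1 constitutive distal peak. There was 1 peak at 3523 of these genes, 2 at 1338, and 6 or more at 183, and 1582 peaks (14.5%) were given to no gene. Long genes offer more room: 11.0% of the genes in the lowest length quintile (median 2.73 kb) and 52.0% of those in the highest (median 110 kb) had a peak. With a transcript start within 50 kb as the rule, 9555 genes (43.5%) had one. These shares are the background for the lists below, and the nearest gene need not be the gene that a distal peak acts on. A gene said below to have none lacks peaks of this class alone, and it may have CEBPA peaks of another class.

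The genes with the most constitutive distal peaks were long. Gm20388, a read-through gene model of 4435 kb that spans many other genes, had 63, followed by Fgfr2 with 22 in a model of 2961 kb and Pde4d, which encodes a cAMP phosphodiesterase, with 19. Genes inside Gm20388, among them Irf8, Cyba, Slc7a5 and Zfpm1 of the lists below, could be given only peaks in their own bodies. Their counts by the gene-body rule are therefore too low to compare with those of other genes. Foxp1, a forkhead factor of blood cells, had 16 and Lpp, a focal-adhesion protein, had 15. Nsmce2, a SUMO ligase of the SMC5/6 complex, had 13 peaks in 227 kb. Runx1, Igf1r (a growth factor receptor), Rad51b (a recombination protein) and Wwox (a fragile-site gene) had 12 each. Per 100 kb of gene this was 5.72 for Nsmce2, 5.34 for Runx1 and 4.27 for Igf1r, against 0.743 for Fgfr2 and 1.31 for Wwox.

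Of the 7 genes of the CEBP family, 4 had a constitutive distal peak (57.1%). The interval, 18.4 to 90.1, includes the 27.6% of all genes. Cebpa itself had 4, all downstream of the gene at 13.9, 33.2, 35.3 and 38.4 kb from its start, and the peak at 13.9 kb alone had a CEBP site. Those at 33.2 and 38.4 kb had a PU.1 peak 0.937 and 0.668 kb away. Cebpb had 2 peaks, at 21.2 and 21.9 kb downstream of its start, both with a site (TTGCACAA and TTGCGAAA) and with the nearest PU.1 peaks 30.5 and 29.8 kb away. Cebpe, which acts in late granulocyte maturation, had 2 without an exact site, and Cebpg had 1 with TTGCATAA lying 4 bp from the centre at -12.5 kb. Cebpd, Cebpz and Ddit3 had none.

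Among neutrophil granule proteins, 14 of 26 genes (53.8%, with a median gene length of 9.75 kb) had a peak, and in the length quintile of all genes with a median of 8.05 kb the share was 15.7%. Anxa1, an anti-inflammatory lipid-binding protein, had 3, and Ctsg (cathepsin G), Serpinb1a (an inhibitor of granule proteases) and Padi4 (an arginine deiminase) had 2 each. The other 10 had 1. They included Elane, encoding neutrophil elastase, with a peak at -1.60 kb, Lcn2 at -1.07 kb, Hp (haptoglobin) at -6.69 kb, and S100a9 with TTGCACAA at -12.9 kb. The Elane peak lay between Elane and Prtn3 and counted for both genes, and the Camp peak counted also for Cdc25a in the cell-cycle list. Mpo (myeloperoxidase), Ltf (lactoferrin) and Lyz2 (lysozyme) had none under this rule. Of the 6 NADPH oxidase subunits, which make the oxidative burst, 3 had a peak (50.0%). The interval, 11.8 to 88.2, includes the 27.6% of all genes.

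Of 22 myeloid cytokine receptors, 11 (50.0%, interval 28.2 to 71.8) had a peak. Their median gene length was 29.9 kb. In the length quintile of all genes with a median of 36.4 kb the share was 34.9%, inside that interval. Ifngr1, the ligand-binding chain of the interferon-gamma receptor, and Tnfrsf1b, a tumour necrosis factor receptor, had 4 each, and 3 of the 4 at each gene had a CEBP site. The Tnfrsf1b peaks at 46.7 and 27.4 kb both held TTGCGTAA. Kit, the stem cell factor receptor, had 1 peak with 2 sites in an intron 40.9 kb from its start, at the same coordinates in both lines and with its nearest PU.1 peak 115 kb away. Csf3r, Csf1r, Csf2ra and Il6ra, the receptors for granulocyte, macrophage and granulocyte-macrophage colony-stimulating factors and interleukin-6, had none. Constitutive distal peaks that a PU.1 peak overlapped numbered 1 at Csf3r, 2 at Il6ra and 0 at Csf1r and Csf2ra.

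In the JAK-STAT list, through which these receptors signal, 12 of 19 genes (63.2%) had a peak. Ptpn11, encoding the phosphatase SHP2, had 4, and Socs3, a feedback inhibitor of gp130 and G-CSF receptor signalling, had 3 at 35.7, 34.1 and 10.7 kb downstream. The SUMO ligase gene Pias1 also had 3, and the feedback inhibitor gene Socs1 had 2. Stat3, Stat6, Stat5b, Jak1 and Jak2 had 1 each, and Stat2, Stat5a, Jak3 and Tyk2 were among the genes with none.

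Haematopoietic transcription factors had 92 peaks in total, with 28 of 40 genes (70.0%) holding at least 1. Runx1, a core-binding factor needed for blood stem cells and often mutated in AML, had 12, 11 of them in introns, including a run of 4 at 211 to 217 kb from its start. Etv6, an ETS-family repressor, had 11, the bone and T-cell factor Runx2 had 10 and Erg, another ETS factor, had 9. These are long genes, of 225, 234, 319 and 227 kb. Spi1, the gene of PU.1, had 3 in introns, of which the one at 16.0 kb held TTGCACAA lying 1 bp from the centre. Gfi1, a transcriptional repressor that acts in granulocyte formation, had 1, and Myc had 2. Hoxa9, Meis1, Tal1, Gata1 and Elf1 were among the 12 with none.

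Cell-cycle regulators had a peak in 13 of 26 genes (50.0%). Cdk6, a D-cyclin kinase of blood progenitors, had 11 in and near its 190 kb, Cdkn1b (p27) and E2f2 had 3, and Ccnd3 (cyclin D3) had 3. Of the Cdk6 peaks, 3 had a CEBP site, and 7 lay between 16.2 and 47.3 kb from the start. Among the genes with none were Cdk2, Cdk4, Ccnd1, E2f1 and Trp53.

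Adhesion and chemotaxis receptors of myeloid cells had a peak in 16 of 22 genes (72.7%). Cxcr4, the receptor that retains leucocytes in the bone marrow, had 8 around a gene of 4.09 kb, from -21.6 to 43.1 kb, and 4 of these had a CEBP site, 3 of them TTGCACAA. Ccr1, a chemokine receptor, had 5, of which 3 had a site. Cxcr2, the neutrophil interleukin-8-type receptor, and Selplg, the ligand of P-selectin, had 3 each.

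**Figure D4:**
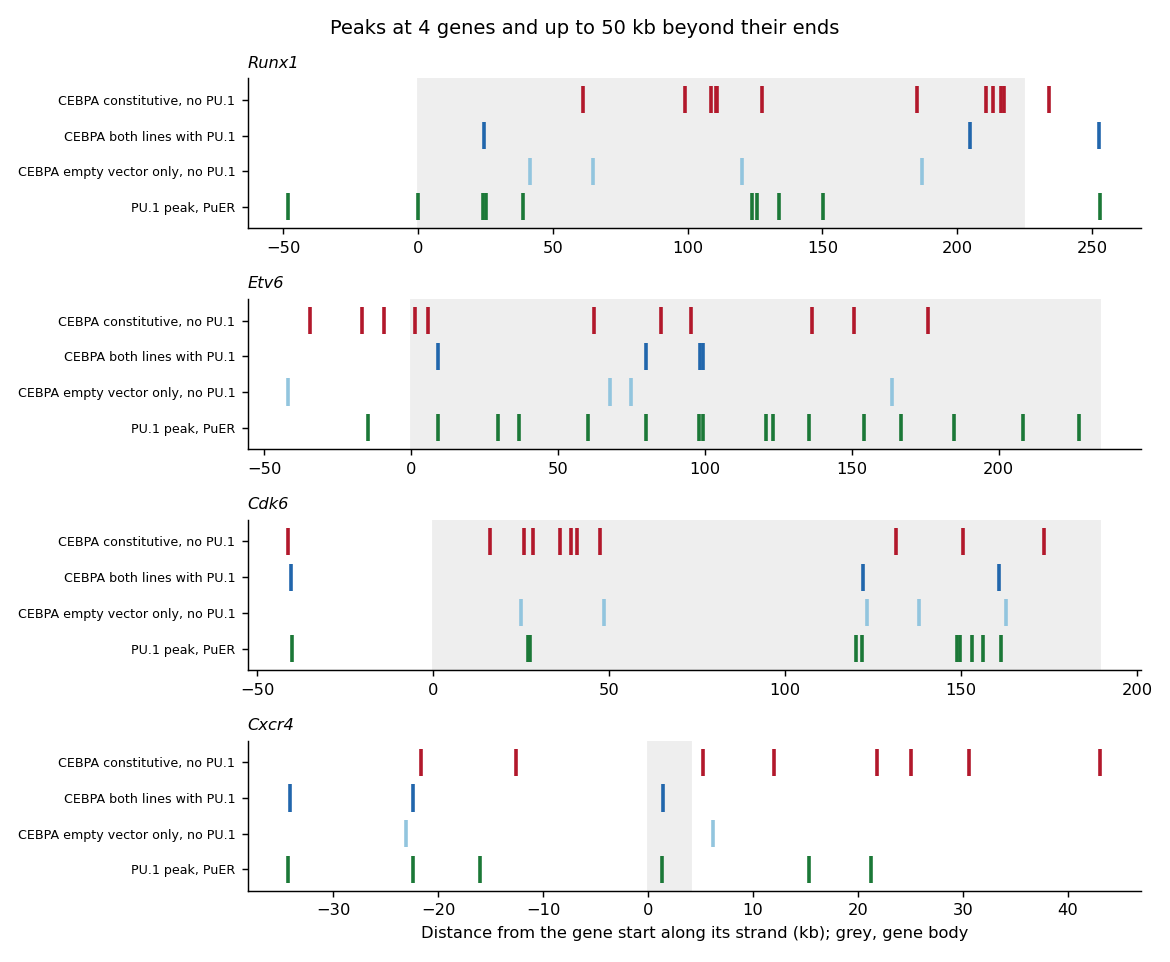
Peak centres at Runx1, Etv6, Cdk6 and Cxcr4, each tick a peak, by distance in kb from the gene start along the strand of the gene (grey, gene body), in 4 rows per gene for constitutive CEBPA peaks without PU.1, CEBPA peaks of both lines with PU.1, CEBPA peaks of the empty-vector list alone, and PU.1 peaks of the PuER list. The top rows hold 12, 11, 11 and 8 peaks, and the PU.1 rows hold 10, 16, 10 and 6.

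Genes of the integrated stress response, which ATF4 with CEBP partners controls, had a peak in 11 of 20 cases (55%). Ddit4, an inhibitor of mTORC1, had 7 between 4.41 and 42.1 kb downstream of its start, beyond a gene of 2.17 kb, and 2 of these held a CEBP site. Atf3 had 4, 3 of them with a site (TTGCGCAA once and TTGCACAA in the others). Vegfa had 2, as did Asns (asparagine synthetase). Atf4, Atf5, Ddit3 and Chac1 had none.

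The remaining lists had lower shares, and the exact interval of each included the 27.6% of all genes. These intervals were 15.6 to 55.3 for liver and fat, 2.55 to 31.2 for lymphoid and 1.46 to 36.4 for erythroid genes. For neural, epithelial and muscle genes the interval was 6.06 to 36.9, and for ribosomal protein genes 10.2 to 32.4. CEBP targets of liver and fat had a peak at 8 of 24 genes (33.3%), led by Pparg with 5, the desaturase gene Scd1 with 4 and Retn (resistin) with 3. The Scd1 peaks lay at least 85.9 kb from any PU.1 peak. Alb, Adipoq, Fabp4 and Apoa1 had none. Lymphoid genes had a peak in 3 of 25 cases (12%), with 2 at Il7r (the interleukin-7 receptor) and 1 each at Igll1 and Cd22. Erythroid genes had a peak in 2 of 17 (11.8%), Klf1 and Ank1. Neural, epithelial and muscle genes had one in 5 of 28 (17.9%), including 2 at Olig2 and 2 at Nefm. Cytosolic ribosomal protein genes, which are short (median 3.80 kb), had one in 11 of 56 (19.6%), with 3 at Rpl37 and 2 each at Rpl14, Rps20 and Rpl3.

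When only transcript starts within 50 kb of a peak were counted, the background was 43.5%. The share was then 86.4% for adhesion and chemotaxis receptors, 85.0% for the stress response, 80.8% for cell-cycle regulators, 78.9% for JAK-STAT, 77.5% for transcription factors, 71.4% for the CEBP family, 68.2% for cytokine receptors, 66.7% for the NADPH oxidase and 61.5% for granule proteins. It was 58.3% for liver and fat targets, 51.8% for ribosomal proteins, 35.7% for neural, epithelial and muscle genes, 32.0% for lymphoid and 29.4% for erythroid genes. The ribosomal share was thus above the background by this rule and below it by the first (19.6% against 27.6%). PU.1 peaks called in PuER alone were given to 6807 of the 21951 protein-coding genes. In the lists they were given to 21 of 22 adhesion and chemotaxis receptors, 19 of 22 cytokine receptors, 28 of 40 transcription factors, 14 of 19 JAK-STAT genes, 15 of 26 cell-cycle regulators, 14 of 26 granule proteins, 6 of 6 NADPH oxidase subunits, 4 of 7 CEBP genes and 9 of 20 stress response genes. The counts were 7 of 24 for liver and fat targets, 9 of 25 for lymphoid, 6 of 17 for erythroid, 6 of 28 for neural, epithelial and muscle and 8 of 56 for ribosomal protein genes. These are counts over lists chosen with earlier results of these data known, and no set test was made.

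**Figure D5:**
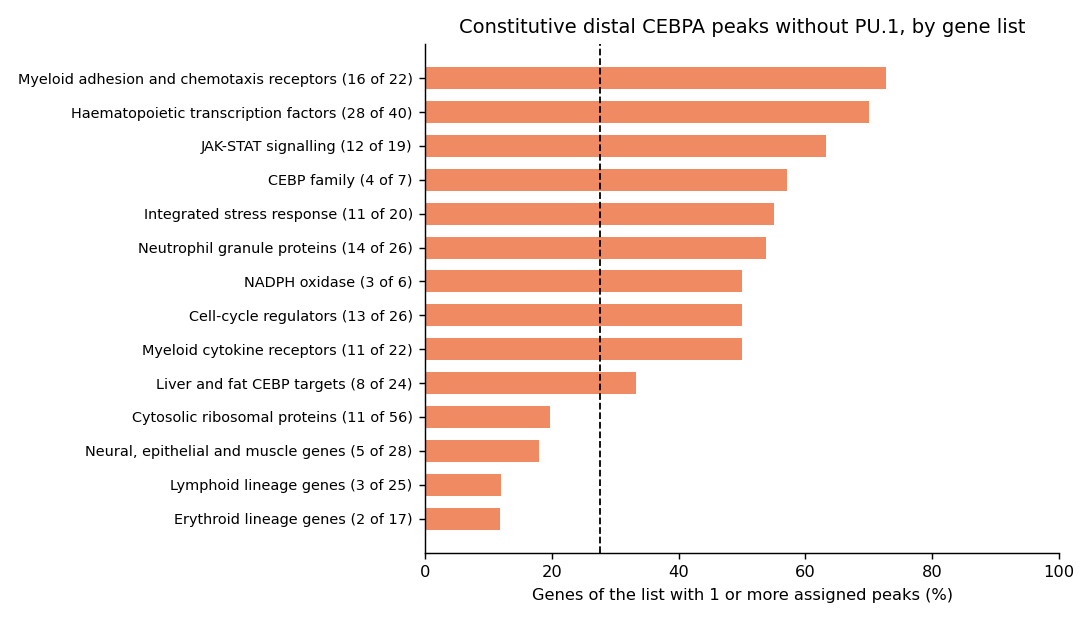
Percent of the genes in each of 14 lists with 1 or more constitutive distal peaks (bars, horizontal axis), with counts beside the names and the share of all protein-coding genes, 27.6%, as a dashed line. The 9 lists of myeloid, signalling, stress and cell-cycle genes lie between 50.0% and 72.7%, and the lymphoid and erythroid lists at 12% and 11.8%. The exact interval, not drawn, includes 27.6% for the CEBP family, NADPH oxidase, liver and fat, lymphoid and erythroid lists. It also does for the neural, epithelial and muscle list and the ribosomal list, and lies above it for the others. The 27.6% is not matched for gene length. The cytokine receptor interval includes the 34.9% of all genes in the length quintile with a median of 36.4 kb.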

How the data were processed

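Per the labels and the methods of the study, PU.1 and CEBPA ChIP-Seq libraries were made from the empty-vector and PuER clones after 2 h in 100 nM OHT, with 1 library per antibody and line. The study's text also mentions time 0, and the labels' 2 h was used. Reads were aligned by the authors to mm10 (Bowtie2 2.0.6), peaks were called (MACS2 2.0.10), and the deposited files are lists of start and end coordinates, with no count, height or p-value. The calling threshold and the origin of the 400-bp width are not given in the sources used here, and depth is unknown. The H3K27Ac and IgG samples, 4 of the 8 in the series, were not analysed here.

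Overlaps of at least 1 bp joined peaks, and each constitutive distal peak overlapped exactly 1 empty-vector peak. Starts, exons and gene bodies came from GENCODE M21, and sequence, repeats and promoter windows from RefSeq GRCm38. Motifs were matched exactly on both strands in the central 80 bp and in 80-bp windows centred 2000 bp to either side. The 8-base sequences were ranked by the difference between peaks and flanks, scaled by the square root of the counts. The software was pysam 0.24.0, scipy 1.17.1, matplotlib 3.10.9, pandas 2.3.3 and numpy 2.4.6 under Python 3.11.15, and the overlap, motif and assignment steps were tested on simulated data. With no replicates, no sample could be left out and no test was made.

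The members, the 14 gene lists and the motifs were chosen with earlier results of these data known. Genes named are the 2 to 4 of each list with most peaks (ties to the shorter gene) with list members that had none or a sequence shown, the 10 genes with most peaks, and the genes at the 5 densest runs. Other list members are given as further examples, chosen after their values were seen. Alternatives were the overlap rule, the distance limits, the window and mismatch for motifs, the line in which peaks were counted, and the gene assignment. Some genes of the lists are counted but not reported here by name.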

Additional observations from a re-analysis of the deposited data

How the results depend on the processing

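The number of constitutive distal peaks stayed between 9685 (over 2.5 kb from a start) and 11259 (starts of protein-coding transcripts only) under 7 other settings, including an overlap of 50% (10860), centres within 100 bp (10755), no PU.1 peak within 1000 bp (9946) and counting in the empty-vector list (10924). The share with a CEBP site was 42.8% in the empty-vector windows and 43.4% with partner centres within 100 bp. It rose to 53.9% in the central 200 bp, 58.9% in the whole peak and 89.6% with 1 mismatch, each a wider search by construction. The share outside protein-coding genes moved from 45.8% to 38.9% with the bodies of all annotated genes and to 48.6% beyond 2.5 kb from starts. The median offset was 11 bp in peaks with a CEBP site. The number of genes with a peak was 5335 with assignment within 20 kb, 6435 within 100 kb and 9555 by transcript starts within 50 kb. For single gene lists, 9 counts moved by over 1.5 times, 2 of them with another assignment distance (1 of 17 erythroid genes within 20 kb and 8 of 28 neural, epithelial and muscle genes within 100 kb) and the others with transcript starts. Intervals of 4 class differences came to exclude 0 in a wider window: CEBP, ETS and RUNX against the PuER-only peaks and AP-1 against the co-bound distal peaks. No class difference in CEBP, ETS, RUNX or AP-1 share reversed. No paired analysis was possible because each group had 1 library. Depth is unknown, so peaks missed in either list cannot be told from unbound DNA, and differences in peak height were not tested.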
